A study of Mus musculus with 4 samples.

Results

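The 6 genes described here are the metallothioneins Mt1, Mt2 and Mt3, the metal-sensing transcription factor Mtf1, the zinc exporter Slc30a1 (ZnT1) and the zinc importer Slc39a10 (ZIP10). They were taken by name from the 19938 genes measured, and all 6 had a probe set of their own, 1 each. The series holds 4 Affymetrix arrays of LSK cells, the bone marrow cells that lack lineage markers, carry Sca-1 and Kit on their surface and include the blood stem cells of the mouse. The Hdac3-null LSK/Flt3- group had 2 arrays, here null 1 and null 2, from mice labelled Vav-Cre/Hdac3Flox/-. The LSK/Flt3+ and LSK/Flt3- fractions of mice labelled wild type had a lone array each and are called WT Flt3+ and WT Flt3- (WT, wild type). All mice were of the C57BL/6 background, and cells of 5 to 30 animals were sorted by flow cytometry and pooled. The Vav promoter drives Cre in blood cells, and Flt3 is a cytokine receptor whose appearance marks the step from stem cell to multipotent progenitor. The labels do not say whether WT mice carried Cre or how old the mice were. Nothing states that the null replicates came from separate mice, so the p-values measure only how far these samples vary, and that spread may be technical.

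Metallothioneins are small cysteine-rich proteins that bind zinc and copper and buffer the free zinc of the cell. MTF1 is a zinc-finger protein that binds metal response elements in DNA when zinc is plentiful and switches on Mt1, Mt2 and the exporter Slc30a1, and in mouse cells it holds down the importer Slc39a10. Mt3 is a metallothionein found mainly in brain. Mt1 and Mt2 are also induced by glucocorticoids and by stress, and Slc39a10 is known in mice for its part in the survival of B-lineage cells.

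Mt4, Mt3, Mt2 and Mt1 lie side by side in that order on mouse chromosome 8 in RefSeq GRCm38.p6. The stretches before the RefSeq starts of Mt1 and Mt2 are shown because these neighbours had the most matches to the metal response element among the 6 genes and were lower in null cells to very unequal extents. Capitals mark matches to the core of that element, TGCACNC or TGCGCNC, on either strand. The 250 bases before the start of Mt1 (chr8:94178839-94179088, plus strand) held 1 match, 23 bases before the start. The next 30 bases (chr8:94179089-94179118, plus strand), which RefSeq places in the transcript, held 2 more. All positions rest on the RefSeq start, and where transcription begins in these cells was not measured. The 250 bases before the start of Mt2 (chr8:94172368-94172617, plus strand) held 3, beginning 223, 128 and 50 bases before it. The 30 bases shown for Slc30a1 (chr1:191906727-191906756, plus strand) hold the match that begins 43 bases before its start.
Mt1 upstream: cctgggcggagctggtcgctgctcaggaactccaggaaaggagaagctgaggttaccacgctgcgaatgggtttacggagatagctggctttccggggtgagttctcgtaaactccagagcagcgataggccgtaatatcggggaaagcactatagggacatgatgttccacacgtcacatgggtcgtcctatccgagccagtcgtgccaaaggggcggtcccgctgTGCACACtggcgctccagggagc
Mt1 past start: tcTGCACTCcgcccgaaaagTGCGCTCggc
Mt2 upstream: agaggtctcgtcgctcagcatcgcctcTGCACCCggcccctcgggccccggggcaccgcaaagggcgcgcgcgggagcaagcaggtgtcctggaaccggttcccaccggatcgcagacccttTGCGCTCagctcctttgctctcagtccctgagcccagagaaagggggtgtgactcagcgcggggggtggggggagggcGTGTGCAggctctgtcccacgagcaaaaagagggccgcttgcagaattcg
Slc30a1: acgggggttccGAGTGCAaagcaaagtttt

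Over the full RefSeq promoter window of 300 bases, from 250 before to 50 after the start, Mt2 had 4 matches, Mt1 had 3, Slc30a1 had 2, and Mt3 and Mt4 had 1 each. The window of Mtf1 and both windows of Slc39a10 had 0. Of all 32851 windows of this length, 25.7% held at least 1 match, 7.11% at least 2, 1.97% at least 3 and 0.517% at least 4. No match overlapped another in these windows. A match is a run of letters and not a measured binding site, and no match says only that these letters are missing from the window.

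Levels are given as deposited, on the log2 scale after RMA, and a difference of 1 is 2-fold. The median of all probe sets was 5.60 and 5.30 on null 1 and null 2, 5.36 in WT Flt3+ and 5.32 in WT Flt3-, and the median gap between the null arrays was 0.27 in absolute size over all genes. Hdac3, the targeted gene, stood at 5.71 and 5.04 on null 1 and null 2, against 6.33 in WT Flt3+ and 6.18 in WT Flt3-. The labels do not say where its probes lie relative to the deleted part. Flt3, the gated receptor gene, stood at 7.84 and 7.02 on null 1 and null 2, against 10.07 in WT Flt3+ and 9.18 in WT Flt3-. Kit, which the sort selects for, was at 10.77 and 10.36 on null 1 and null 2, 10.11 in WT Flt3+ and 10.25 in WT Flt3-, and Sca-1 (Ly6a) had no probe set of its own. The 6 genes were chosen from null against WT values of these same arrays, so their differences are a description and carry no test.

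Mt2, an inducible metallothionein, stood far lower in null cells than in either WT fraction. Its level was 4.78 on null 1 and 7.16 on null 2, against 8.32 in WT Flt3+ and 8.48 in WT Flt3-. Both null arrays were below both WT arrays, and null 1 was the lowest by a wide margin. Against WT Flt3-, Mt2 was 12.9-fold lower on null 1 and 2.49-fold lower on null 2. Against WT Flt3+ it was 11.6-fold lower on null 1 and 2.25-fold lower on null 2. The null mean was 5.97 ± 1.68 (SD, n = 2), a log2 difference of -2.50 from WT Flt3- and of -2.35 from WT Flt3+. Of all 19938 genes, Mt2 had the sixth lowest mean difference from WT Flt3-. On null 1 it lay under that array's median over all probe sets, whereas on the other arrays it lay above theirs. Whether its probes also take up RNA of the closely related Mt1 was not tested.

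The null arrays did not agree on how low Mt2 was. Null 1 stood 2.37 below null 2 on the log2 scale, or 5.18-fold, and only 8 genes in all, Mt2 among them, had a gap at least as large in either direction. That is 0.0401% of genes. Null 2 alone places Mt2 at a log2 difference of -1.32 from WT Flt3-, and null 1 alone at -3.69. The direction was the same on both, and the size rests on which array is read.

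Mt1, the neighbour of Mt2 with the same inducers, was lower in null cells by far less. It stood at 7.43 on null 1 and 7.89 on null 2, against 8.23 in WT Flt3+ and 8.16 in WT Flt3-. The order of the arrays was nearly that of Mt2, with both null arrays below both WT arrays. The null mean was 7.66 ± 0.33 (SD, n = 2), and its log2 difference was -0.50 from WT Flt3- and -0.57 from WT Flt3+. Null 1 differed from WT Flt3- by -0.74 and null 2 by -0.27, and the gap between the null arrays was 0.46, so the second of these was smaller than that gap.

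Mt3, the brain metallothionein, stood at 6.30 and 6.04 on null 1 and null 2, against 6.11 in WT Flt3+ and 6.18 in WT Flt3-. The WT values lay between the null values. The difference of the null mean was -0.01 from WT Flt3- and 0.06 from WT Flt3+, and the second turned negative, down to -0.03, under other scalings. The values carry no detection call, so whether any of these levels stands above background is unknown. Mt4, a metallothionein of stratified epithelium, stood at 4.59 and 4.59 on null 1 and null 2, 4.68 in WT Flt3+ and 4.48 in WT Flt3-. Beyond the cluster, the nearest genes measured were Bbs2 on the Mt4 side and Nup93, a nuclear pore protein gene, on the Mt1 side, looked at after the values of Mt2 were known. Bbs2 differed from WT Flt3- by 0.26 on null 1 and -0.03 on null 2, and Nup93 by -0.39 and 0.07. Of the 8 genes from Ogfod1 to Slc12a3, Mt1 and Mt2 alone had both null arrays below both WT arrays, as had 11.7% of all genes. Mt1 and Mt2 were picked with these values known, so nothing is read from this count.

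**Figure D1:**
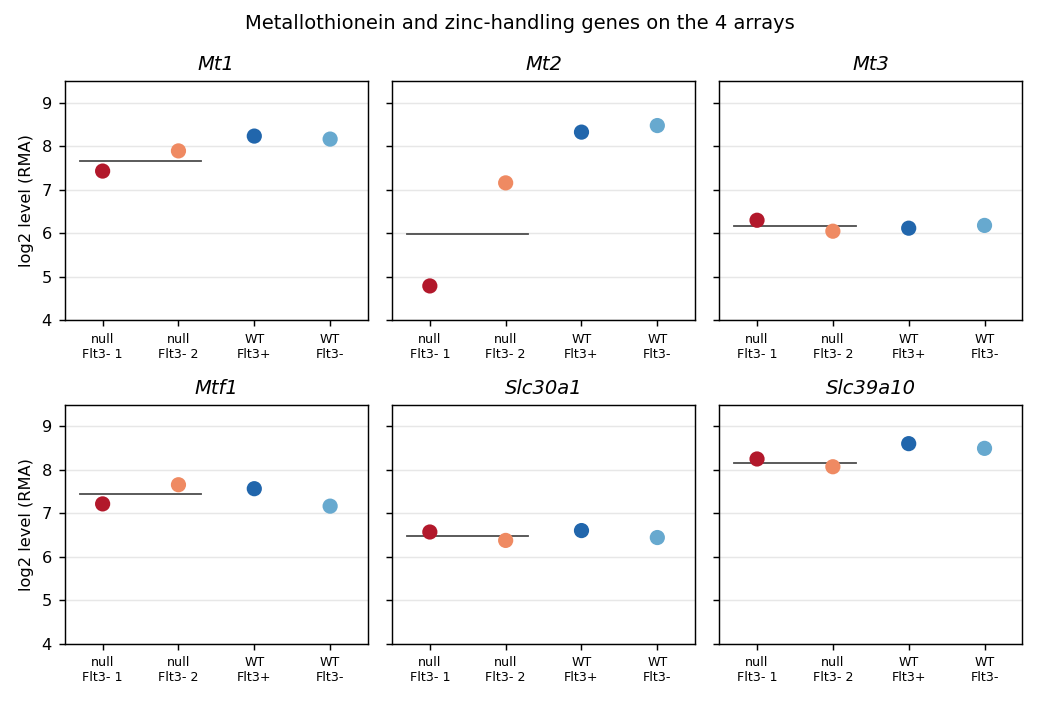
Log2 levels (RMA) of the 6 genes on each array, with null 1 and null 2 on the left, WT Flt3+ and WT Flt3- on the right, and a line at the mean of the 2 null arrays. Mt2 is at 4.78 on null 1 and 7.16 on null 2, against 8.32 and 8.48 in WT Flt3+ and WT Flt3-, while the null and WT values of Mt3 interleave.

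Mtf1, the regulator, stood at 7.22 and 7.66 on null 1 and null 2, against 7.57 in WT Flt3+ and 7.17 in WT Flt3-. The order from low to high was WT Flt3-, null 1, WT Flt3+ and null 2, so the groups overlapped. The log2 difference of the null mean was 0.27 from WT Flt3- and -0.13 from WT Flt3+, both within the 0.44 between the null arrays.

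Slc30a1, which carries zinc out across the cell membrane, stood at 6.57 and 6.38 on null 1 and null 2, against 6.60 in WT Flt3+ and 6.44 in WT Flt3-. Its null mean, 6.47 ± 0.14 (SD, n = 2), lay 0.03 above WT Flt3- and -0.13 from WT Flt3+ on the log2 scale. With arrays set to equal medians, by quantile normalization or by cyclic loess, the difference from WT Flt3- was between -0.10 and -0.01, so its sign is not settled.

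Slc39a10, which brings zinc into the cell, stood at 8.25 and 8.07 on null 1 and null 2, against 8.60 in WT Flt3+ and 8.50 in WT Flt3-. Both null arrays were below both WT arrays by a small step. The null mean was 8.16 ± 0.13 (SD, n = 2), with a log2 difference of -0.33 from WT Flt3- and -0.44 from WT Flt3+. The gap between the null arrays was 0.18, so this difference was small but repeated more closely than that of Mt1 or Mt2. Fewer cells of a type and less RNA per cell cannot be told apart in such pooled samples, for this or any gene here.

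By count, 1 of the 6 genes, Mt2, was lower than WT Flt3- by at least 2-fold on null 1 and on null 2, where 0.381% of all genes were. The same gene was past 2-fold lower than WT Flt3+ on null 1 and on null 2, where 1.08% of all genes were. Mt1, Mt2 and Slc39a10, 3 of 6, had both null arrays below both WT arrays, as had 11.7% of all genes, and 0 of 6 had both null arrays above them, as had 23.0% of all genes. The members were picked with these values known, so nothing is read from the counts. The median log2 difference of the 6 genes was -0.17 against WT Flt3-, beside 0.09 over all genes, and -0.29 against WT Flt3+, beside 0.05. Both comparisons use the same null arrays, and that against WT Flt3+ differs in sorted fraction as well as genotype.

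**Figure D2:**
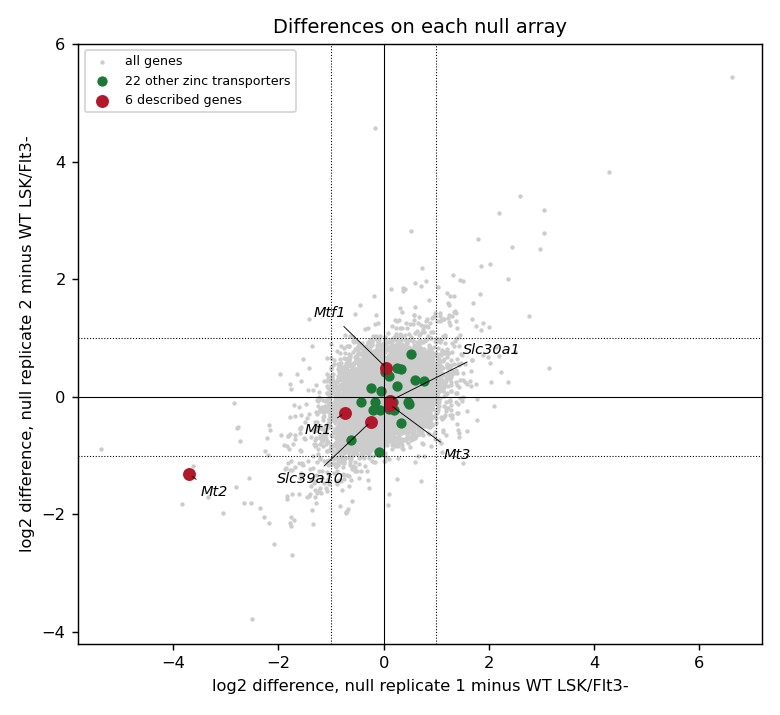
Log2 difference from WT Flt3- on null 1 (horizontal axis) and on null 2 (vertical axis) for all 19938 genes in grey, 22 other zinc transporters in green and the 6 described genes in red, with dotted lines at 2-fold. Both axes share the same WT array, so the slope of the cloud is no sign of agreement between the null arrays. Mt2, at -3.69 and -1.32, is the red point far from the rest.

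Between the WT fractions, which have no replicates and so no test, each of the 6 genes differed by at most 1.32-fold. The log2 difference of WT Flt3+ from WT Flt3- ran from -0.15 for Mt2 to 0.40 for Mtf1, and 0 of 6 genes were 2-fold apart, as were 1.1% of all genes. Mt1 differed by 0.07, Mt3 by -0.06, Slc39a10 by 0.11 and Slc30a1 by 0.16. Over all genes the absolute difference between these arrays had a median of 0.17 and a 95th percentile of 0.59. The value of Mtf1 was the only one of the 6 well above that median, and it lay under the 95th percentile. These WT sorts differed in other ways: 7 of 8 macrophage markers were at least 2-fold higher in WT Flt3+. The summed linear signal of the macrophage list was 483 and 544 on null 1 and null 2, against 1716 in WT Flt3+ and 367 in WT Flt3-, and its part in the values against WT Flt3+ was not tested.

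The other zinc transporters centred near the middle of all genes. Of the 22, 0 passed limma against WT Flt3-, where 0.0201% of all genes did, and 0 had an unadjusted p under 0.05. Their median log2 difference was 0.04, beside 0.09 over all genes, and 8 were higher and 6 lower on both null arrays, where 41.3% of all genes were higher and 19.9% lower. Slc30a9, a zinc carrier of mitochondria, had the lowest difference among the exporters, with levels of 7.40 and 7.30 on null 1 and null 2 and 8.03 in WT Flt3- (-0.68 ± 0.36, SE; limma adjusted p = 1). Slc30a3, which fills synaptic vesicles with zinc, had a difference of 0.52. Among the importers, Slc39a6 had a difference of 0.62 and Slc39a5 of 0.44. Slc39a6 stood at 8.01 and 8.22 on null 1 and null 2 and 8.39 in WT Flt3+, and at 7.49 in WT Flt3-, so that it was the WT Flt3- array that stood apart.

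Against WT Flt3+, 0 of the 22 passed limma over all genes, where 0.316% of all genes did, and 1 had an unadjusted p under 0.05, where 3.44% of all genes had. This was Slc30a4, a zinc transporter of internal vesicles, named after its values were seen, with a log2 difference of -1.10 (± 0.40, SE; limma adjusted p = 0.947). It stood at 5.57 and 4.71 on null 1 and null 2, against 6.24 in WT Flt3+.

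Genes of related systems came next. Their lists were chosen with earlier results of these data known, so nothing is read from their counts beside those of all genes. Of the 88 genes of the zinc, MTF1-linked, copper, iron, oxidative stress, glucocorticoid and immediate early lists, 0 passed limma against WT Flt3-, also with robust estimation, and at an unadjusted p under 0.05, 1 was higher and 8 were lower, where 2.4% of all genes passed in either direction. Against WT Flt3+, 2 of the 88 passed limma, where 0.316% of all genes did, both lower and both heat shock or immediate early genes. At an unadjusted p under 0.05, 2 were higher and 13 lower, where 3.44% of all genes passed in either direction. Of 6 other genes linked to MTF1, Gclc, a subunit of the enzyme that starts glutathione synthesis, stood at 7.75 and 7.82 on null 1 and null 2, against 8.50 in WT Flt3- (log2 difference -0.71). The selenoprotein gene Selenow stood at 9.36 and 10.58 on null 1 and null 2, against 10.59 in WT Flt3-, so that null 1 alone was low.

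Of 10 copper genes measured, Atp7b, a copper-exporting ATPase, had the largest difference, -1.20 on null 1 and -0.80 on null 2 (limma adjusted p = 1 for their mean), with levels of 4.79 and 5.19 on null 1 and null 2 and 5.99 in WT Flt3-. Cox17, a copper chaperone of mitochondria, was at -0.92 on null 1 and -0.06 on null 2. Of 14 iron genes, Slc40a1 (ferroportin), the iron exporter and itself known as an MTF1 target in mouse cells, had the largest difference, at -1.36 (± 0.43, SE; limma adjusted p = 1). Its level was 4.27 on null 1 and 5.33 on null 2, against 5.87 in WT Flt3+ and 6.16 in WT Flt3-. Both null arrays lay below both WT arrays, with null 1 the lowest, as for Mt2. Slc11a2 (DMT1), an importer of iron, had a difference of -0.80 (± 0.34, SE; limma adjusted p = 1).

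Of 14 oxidative stress genes, 8 were higher and 0 lower on both null arrays than in WT Flt3-, where 41.3% of all genes were higher and 19.9% lower, and 0 passed limma, with 1 at an unadjusted p under 0.05. This was Gsr, glutathione reductase, at 8.09 and 7.99 on null 1 and null 2, against 6.93 in WT Flt3+ and 7.01 in WT Flt3- (log2 difference from WT Flt3- 1.03 ± 0.36, SE; limma adjusted p = 1). Hmox1, the heme-degrading enzyme that stress induces, had a difference of 0.66. The list median was 0.24, beside 0.09 over all genes.

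Of 9 glucocorticoid genes, 7 were lower and 0 higher on both null arrays than in WT Flt3-, where 19.9% of all genes were lower and 41.3% higher. In limma 0 passed or had an unadjusted p under 0.05, where 2.4% of all genes had. Nr3c1, the glucocorticoid receptor, stood at 6.46 and 7.05 on null 1 and null 2, against 7.48 in WT Flt3+ and 7.29 in WT Flt3- (log2 difference from WT Flt3- -0.53). Sgk1, a kinase gene that the receptor switches on, had a difference of -0.33. The list median was -0.11, beside 0.09 over all genes.

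The immediate early and heat shock genes, which stress induces as it does Mt1 and Mt2, had the lowest list median, at -0.68 against WT Flt3-. Of 13 measured, 9 were lower and 0 higher on both null arrays, beside the same 19.9% and 41.3% of all genes. As the list was chosen with earlier results known, this count is a description only. In limma against WT Flt3-, 0 passed and 5 were lower at an unadjusted p under 0.05, where 2.4% of all genes passed in either direction. The comparison with WT Flt3+ differs in sorted fraction as well as genotype, which cannot be told apart here. In limma 2 of the 13 were lower and 0 higher in it, where 0.281% of all genes were lower and 0.0351% higher. They were Hspa1a, a heat shock chaperone (log2 difference -2.72 ± 0.36, SE; limma adjusted p = 0.0124), and Atf3, a stress-induced transcription factor named after its values were seen (-2.52 ± 0.35, SE; limma adjusted p = 0.0147). Hspa1a stood at 6.47 and 6.70 on null 1 and null 2, against 9.30 in WT Flt3+ and 8.05 in WT Flt3-. Its null arrays lay close together, unlike those of Mt2, and the WT arrays differed by 1.25. Atf3 stood at 5.52 and 5.25 on null 1 and null 2, against 7.90 in WT Flt3+ and 6.29 in WT Flt3-. The WT arrays differed by 1.61 for Atf3, and its log2 difference from WT Flt3- was -0.91. Jun, a part of the AP-1 factor, had differences of -1.35 from WT Flt3- and -1.31 from WT Flt3+ (limma adjusted p = 0.937 and 0.459).

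**Figure D3:**
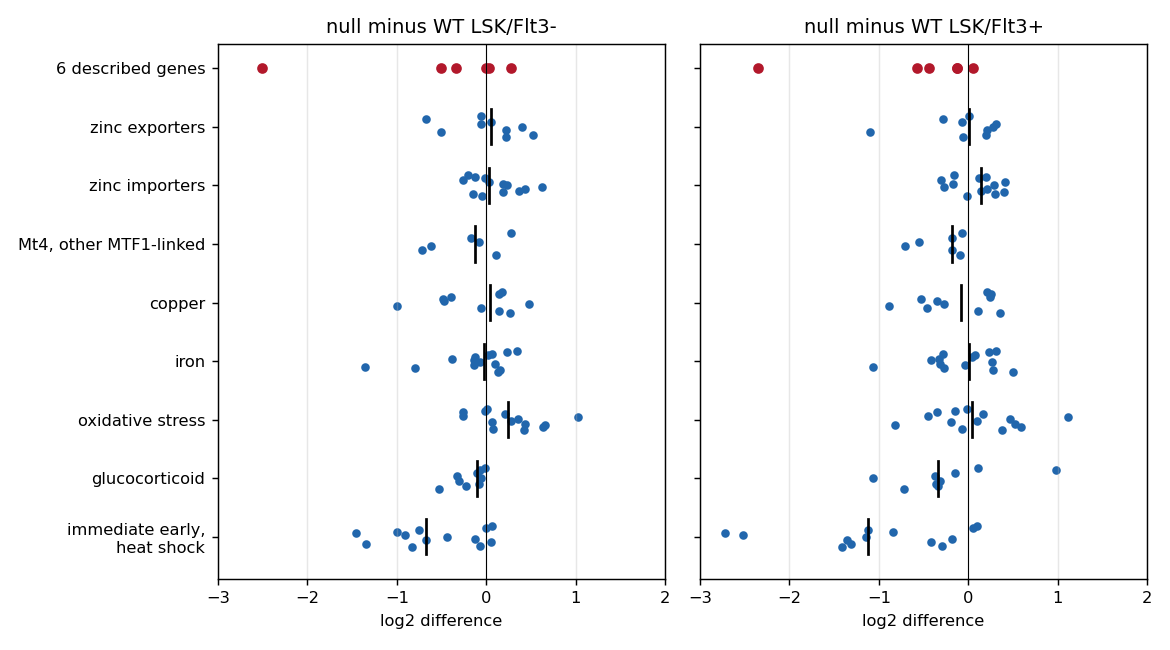
Log2 difference of the null mean from WT Flt3- on the left and from WT Flt3+ on the right, with 1 point per gene, the 6 described genes in red at the top and 8 lists of related genes in blue, each with its median as a black bar. The zinc transporter lists centre near 0, and the immediate early and heat shock list has its median at -0.68 on the left and -1.12 on the right. The same null arrays enter both panels.

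The genes whose pattern over the 4 arrays was most like that of the metallothioneins were found from the mean of Mt1 and Mt2, each gene set to its own mean. This mean profile stood at 6.11 and 7.52 on null 1 and null 2, 8.28 in WT Flt3+ and 8.32 in WT Flt3-. By root mean square distance over the 4 arrays the 8 nearest genes were AI506816 (0.04), H2bc4 (0.18), Blvrb (0.21), Slc40a1 (0.21), Med10 (0.21), Rnase6 (0.22), Rhd (0.23) and Ublcp1 (0.26). Mt1 and Mt2 themselves each lay 0.58 from their mean. AI506816 stood at 7.38 and 8.89 on null 1 and null 2, against 9.62 in WT Flt3+ and 9.59 in WT Flt3-. H2bc4 encodes a core histone, Blvrb a biliverdin reductase abundant in red cells, Rhd a red cell membrane protein and Med10 a Mediator subunit. With 4 arrays from 3 groups, a near profile says little more than that a gene was low on null 1 and lower on null 2 than in WT cells.

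**Figure D4:**
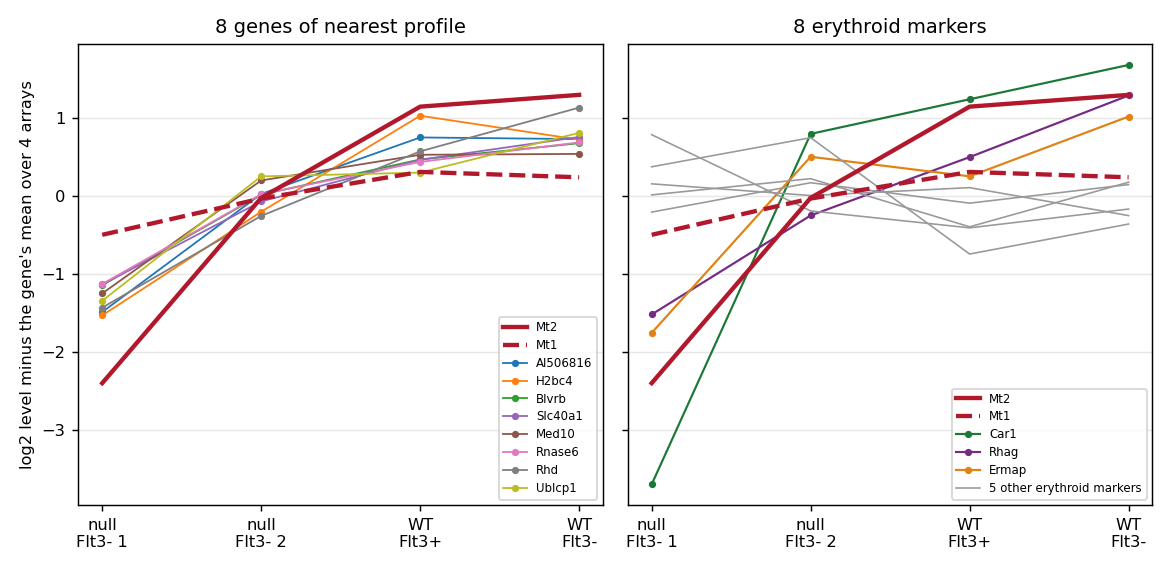
Log2 level of each gene minus its own mean over the 4 arrays, with null 1 and null 2 on the left and WT Flt3+ and WT Flt3- on the right of each panel; lines join the arrays of 1 gene and show no order in time. The left panel sets Mt1 and Mt2 beside the 8 genes of nearest profile, and the right panel beside 8 erythroid markers. Car1, Rhag and Ermap are lowest on null 1 among the 4 arrays, as Mt2 is.

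Of the erythroid markers, Car1 and Rhag shared the order of the arrays seen for Mt2, and Ermap was also lowest on null 1. Car1, which encodes an erythroid carbonic anhydrase, stood at 6.44 and 10.92 on null 1 and null 2, against 11.37 in WT Flt3+ and 11.81 in WT Flt3-. Ermap, a red cell membrane gene, stood at 6.23 and 8.48 on null 1 and null 2, against 8.23 in WT Flt3+ and 9.0 in WT Flt3-, so that null 2 lay above WT Flt3+. Rhag, of the Rh complex, was at 4.80 and 6.07 on null 1 and null 2, against 6.82 in WT Flt3+ and 7.61 in WT Flt3-. Against WT Flt3-, these 3 of 8 erythroid markers measured were lower on null 1 and on null 2, as were 19.9% of all genes. Higher on both were 2, as were 41.3% of all genes. They were Car2, a second carbonic anhydrase of red cells, by 0.73 on null 1 and 1.11 on null 2 (limma adjusted p = 1 for the mean), and Slc4a1, the anion exchanger of the red cell membrane, by 0.41 on null 1 and 0.26 on null 2. Klf1, the master regulator of the lineage, stood at 6.09 and 6.46 on null 1 and null 2, against 6.20 in WT Flt3+ and 6.44 in WT Flt3-. The summed linear signal of the 8 was 2210 and 4835 on null 1 and null 2, against 4061 in WT Flt3+ and 5571 in WT Flt3-. This order changed when Car1 was left out, in a sum added after the values were seen. The other 7 came to 2123 and 2893 on null 1 and null 2, against 1420 in WT Flt3+ and 1990 in WT Flt3-. Of these 7, Car2 was the highest on every array and shared the order of their sum. Its level was 10.73 and 11.10 on null 1 and null 2, against 9.61 in WT Flt3+ and 9.996 in WT Flt3-. A sum without both Car1 and Car2 was not made, so nothing is read about the rest from these sums. The part of these markers in the Mt2 values was not tested.

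Markers of granulocyte and monocyte progenitors stood higher on the null arrays. Of 7 measured, 6 were higher on both null arrays than in WT Flt3-, as were 41.3% of all genes. Lower on both were 0, as were 19.9% of all genes. Their median log2 difference was 1.39, beside 0.09 over all genes. In limma 1 of the 7 was higher than in WT Flt3-, where 0.0201% of all genes were. This was Ms4a3, a gene of granulocyte and monocyte precursors (log2 difference from WT Flt3- 3.11 ± 0.35, SE; limma adjusted p = 0.0321). It stood at 10.08 and 10.20 on null 1 and null 2, against 7.34 in WT Flt3+ and 7.03 in WT Flt3-. Their summed linear signal was 7237 and 8655 on null 1 and null 2, against 3892 in WT Flt3+ and 3423 in WT Flt3-. Marker lists, too, were chosen with earlier results of these data known, so nothing is read from their counts. The part of these markers in the values of the 6 genes was not tested.

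Gene size also went with the gap between the null arrays, in a comparison made after the values of Mt2 were known. Mt1, Mt2 and Mt3 span 1445, 950 and 1542 bases of the genome in RefSeq GRCm38.p6. Among the 236 protein-coding genes with a mean of 6 or more that span at most 2000 bases, null 1 lay below null 2 by a median of -0.34 on the log2 scale. For the 948 such genes that span over 100000 bases the median was 0.18, and the medians between ran from -0.24 to 0.07. Of the 236 short genes 40, or 16.9%, were at least 2-fold lower on null 1 than on null 2, and 105 were as far apart as Mt1. Only 2 of the 236 short genes, Mt2 included, had a gap as large as that of Mt2. Against WT Flt3-, the median of the short genes was -0.16 on null 1 and 0.16 on null 2. Mt2 was at -3.69 and -1.32 on null 1 and null 2, and Mt1 at -0.74 and -0.27. The part of gene size in the values of Mt1 and Mt2 was not tested further.

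**Figure D5:**
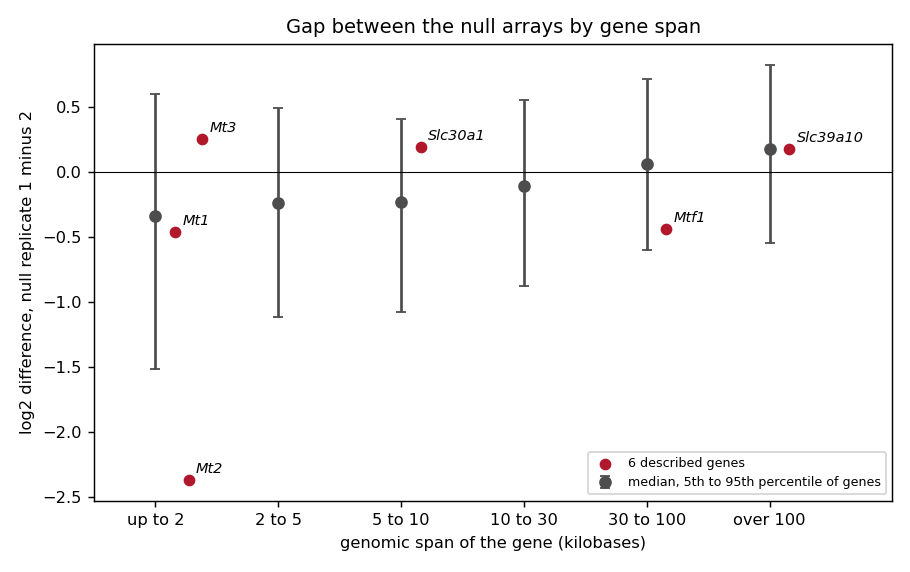
Log2 difference of null 1 from null 2, on the vertical axis, by genomic span in kilobases for protein-coding genes with a mean of 6 or more; grey points are medians over genes, bars the 5th to 95th percentile, and red points the 6 described genes, each drawn in the bin of its span. The median runs from -0.34 for the shortest genes to 0.18 for the longest, and Mt2, at -2.37, lies below the 5th percentile of the shortest.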

How the data were processed

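The 4 arrays measured RNA of sorted mouse bone marrow cells. The authors deposited log2 levels for each probe set. RMA and affy 1.23 are named, per the submitters' processing notes. Array medians were unequal, and the scaling behind the values is unknown. The platform annotation gave 1 symbol for 21789 of 35556 probe sets, several for 1621 and none for 12146. Probe sets with 1 symbol were used, and the one with the highest mean over the 4 arrays stood for each of 19938 genes.

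The members and lists were chosen with earlier results of these data known. Genes other than the members were tested with limma 3.58.1 (R 4.3.3) in 1 fit of all 4 arrays in 3 groups, with a mean-dependent prior, two-sided, with Benjamini-Hochberg adjustment over all genes at 0.05. The 1 residual degree of freedom comes from the null pair, and the spread of the WT groups, which have 1 array each, is taken to equal theirs. The number of arrays limits the precision. Named by rule were the members, Hdac3 and Flt3, in each list the genes past 2-fold on null 1 and null 2 alike or else up to 2 with the largest difference, and the 8 nearest profiles. Lists gave 88 of 90 genes measured. Promoter sequences are from RefSeq GRCm38.p6, matched by symbol for all 6 genes. Spans came from the same build and were had for 99.6% of genes. Alternatives were robust or trend-free priors, other scalings, all probe sets, a level filter, fewer arrays and leaving out a null array.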

Additional observations from a re-analysis of the deposited data

How the results depend on the processing

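The differences of Mt1 and Mt2 kept their direction under equal array medians, quantile normalization and cyclic loess, and in both null comparisons under either null array alone. For Mt2 against WT Flt3- the other scalings gave -2.64 to -2.53, and a null array alone -3.69 to -1.32; for Mt1 they gave -0.64 to -0.50 and -0.74 to -0.27. Against WT Flt3+ a null array alone gave -3.54 to -1.17 for Mt2 and -0.81 to -0.34 for Mt1. Equal array medians shifted the median of all genes from 0.09 to -0.04 against WT Flt3- and put Slc39a10 at -0.47. Of the 54 values that these scalings gave for the 6 genes over the 3 comparisons, 1, that of Slc39a10, moved by more than the SD of the null pair. That SD is each gene's own, from 0.13 for Slc39a10 to 1.68 for Mt2. The count therefore does not rank the genes by how much scaling moves them. The 6 genes had 1 probe set each, so using all probe sets changed nothing for them.

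Counts of calls over all genes depended on the setting. Against WT Flt3-, 4 genes passed limma, 25 with robust estimation, 108 with equal array medians and 2 after quantile normalization. Against WT Flt3+, 63 passed, 114 with robust estimation, 272 with equal array medians, 114 after cyclic loess and 22 when genes under a mean level of 6 were left out. Of the 88 listed genes, 0 and 2 passed in these comparisons, and 2 and 4 with equal array medians. With a null array left out no test remains, and counts are of genes at least 2-fold apart: 298 to 507 and 444 to 801 over all genes, and 4 to 7 and 10 to 13 of the listed ones. The causes were not tested. No paired analysis was possible because the null group alone has more than 1 replicate. With no detection calls, what low signal limits could not be read.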

Other observations

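Hmox1, which encodes the heme-degrading enzyme that stress and metals induce, differed more between the WT fractions than any of the metallothioneins did. It stood at 5.91 in WT Flt3+ and 4.43 in WT Flt3-, a log2 difference of 1.48 with no test, as each fraction has 1 array. Null 1 and null 2, at 5.12 and 5.07, lay between. Mrc1, a macrophage lectin gene, was at 8.62 in WT Flt3+ and 4.70 in WT Flt3-. Its part in the Hmox1 values was not tested. Zbtb16, a transcription factor gene that glucocorticoids induce, went the other way, at 5.62 in WT Flt3+ and 6.67 in WT Flt3-, with 6.55 and 6.65 on null 1 and null 2. Dusp1, of the same glucocorticoid list, was higher in WT Flt3+, at 9.13 against 8.12 in WT Flt3-. The median difference of that list between the WT fractions was 0.05, beside 0.04 over all genes. These comparisons were chosen after the values were seen.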
